A study of Mus musculus with 4 samples.

Results

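The genes described here are the chaperones of the cytosol, the nucleus and the mitochondria. They were taken by name from the gene count table as the Hspa, Hspb, Hspd, Hspe, Hsph and Hsp90 genes, the Hsp-binding proteins that share these letters, the Dnaja, Dnajb and Dnajc genes, Cct2 to Cct8 and Tcp1. Of 94 rows with such names, 10 pseudogene rows and 7 genes were left out, namely the ER chaperones Hspa5, Hsp90b1, Dnajb9, Dnajb11 and Dnajc3 and the stress-inducible Hspa1a and Hspa1b, which left 77 members of 41342 named genes. The limit for a test, 50 counts on average per library, was reached by 58 members and by 11286 genes in all. The rule itself uses names alone. Because the choice went by name, members of the ER remained in the set. A list of 7 of them is described as a group of its own, and other members of ER membranes, such as Dnajc1 and Dnajc14, stand with other roles.

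RNA had been taken from CD43-depleted splenocytes, that is splenic B cells freed of cells that carry CD43, of mice of strain 129 that lack parts of the 3' regulatory region of the IgH locus. ΔleftPAL mice lack the fragment hs3a-IRIS-hs1,2, which holds a pair of enhancers and the sequence between them. ΔIRIS mice lack the inverted repeats between these enhancers and keep the enhancers, with hs3a inverted. Both lines came from targeted ES cells after cre-mediated removal of the neomycin gene, and the labels give no age, while the study describes the mice of this assay as young adult males. For each genotype there was 1 library from freshly isolated resting cells and 1 from cells passed over a density gradient after 48 h in culture with LPS, the lipopolysaccharide of bacterial walls and a B cell activator (5 μg per ml). Each library pools animals (the labels and the methods differ on how), and the wt libraries were not analysed here. LPS, time in culture and the density gradient cannot be told apart in this design. No cells were cultured without LPS, and the gradient is described for the cultured cells alone. Levels are given as CPM, counts scaled to a common library size with TMM factors, always in the order resting then LPS. An LPS change over both genotypes comes from edgeR's quasi-likelihood fit with genotype as a term, and a gene was called at an adjusted p under 0.05. A gene's own spread in this fit is the disagreement between the genotypes (residual degrees of freedom, 1). It was moderated over all tested genes (median prior degrees of freedom, 4.35), so that an SE rests largely on the spread of other genes. Values of single pairs of libraries have no replicate behind them. The p-values therefore measure only the spread between these 4 pooled libraries.

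Total counts lay between 23621743 and 29778717, so that the floor of 3 counts corresponded to 0.102 to 0.123 CPM. The 5 B cell markers summed to 3218 and 2781 CPM in resting ΔleftPAL and ΔIRIS cells and to 2015 and 2146 CPM after LPS, and 4 of them fell. The 5 erythroid markers summed to 41238 and 28559 CPM in resting ΔleftPAL and ΔIRIS cells and to 58.1 and 124 CPM after LPS. The 6 myeloid markers summed to 360 and 474 CPM at rest and to 14.1 and 20.0 CPM after LPS. Of these, Itgam went from 13.1 to 5.2 CPM in ΔleftPAL and from 10.5 to 15.4 CPM in ΔIRIS cells. At rest Lyz2, Csf1r and Emr1 were higher in ΔIRIS cells, and Itgam, S100a8 and S100a9 were lower. The 5 T cell markers summed to 19.3 and 25.2 CPM at rest and to 0.111 and 0.0341 CPM after LPS, when 3 and 4 of them were at 0. At rest Cd4 (11.2 and 17.1 CPM) and Cd8a were higher in ΔIRIS cells, and Cd3e, Cd3d and Cd3g (2.05 and 0.378 CPM) were lower. The 4 NK cell markers summed to 7.41 and 4.23 CPM at rest and to 1.11 and 0.648 CPM after LPS. Of the 5 plasma cell markers 4 rose, from summed levels of 341 to 1357 CPM in ΔleftPAL and of 293 to 887 CPM in ΔIRIS cells. These markers thus differed between the same libraries as every LPS change given here, and their part in the chaperone values was not tested. In RNA of whole samples, fewer cells of a type and less RNA per cell cannot be told apart.

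Chaperones bind proteins that are not yet, or no longer, folded. HSP70 proteins hold short stretches of a chain, J proteins (the Dnaj genes) bring them their clients and make them hydrolyse ATP, and HSP110 proteins and other exchange factors reset them. HSP90 acts later on clients that are partly folded, such as kinases and steroid receptors, and TRiC, a double ring of different but related subunits, encloses actin, tubulin and other proteins while they fold. Mitochondria have a set of their own, with the HSP70 protein encoded by Hspa9 that pulls proteins in and the HSP60 and HSP10 ring encoded by Hspd1 and Hspe1 that folds them. B cells activated by LPS grow, divide and in part become antibody-secreting cells, and all of these activities require newly made proteins to be folded.

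After LPS, 34 of the 58 tested members (58.6%) rose, against 36.4% of all genes tested, and 8 members (13.8%) fell, against 27.9%. The median LPS change was 0.74 on the log2 scale for the members and 0.12 for all genes tested. At least 2-fold higher levels in both genotypes were found for 23 members, with a background of 17.3%, and at least 2-fold lower levels in both for 3 members, with a background of 13.1%. The latter count was 1 with a minimum mean of 200 counts or a prior of 5 CPM, and Dnajb14, 1 of the 3, had a log2 change of 0.24 with kallisto estimated counts. Summed over all members, the level was 4769 and 13071 CPM in ΔleftPAL (resting, then LPS) and 5465 and 14646 CPM in ΔIRIS cells, or 0.493%, 1.27%, 0.553% and 1.44% of the counts of named genes. The 3 most abundant members held between 39.4% and 44.2% of the members' counts in each library. Both LPS libraries lay above both resting libraries for 38 members, with a background of 46.4%, and below them for 14 members, with a background of 37.1%. With 1 library left out and no genotype term, a call was lost in at least 1 of 4 such fits by 11 members (Dnaja2, Dnajb4, Dnajb5, Dnajc7, Dnajc8, Dnajc12, Dnajc14, Dnajc18, Dnajc21, Hspa4l and Hspa12a), and none changed direction. By role, 8 of 8 TRiC subunits, 2 of 2 cytosolic HSP90 genes and 0 of 5 class B J proteins rose, and the difference between roles was not tested.

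**Figure D1:**
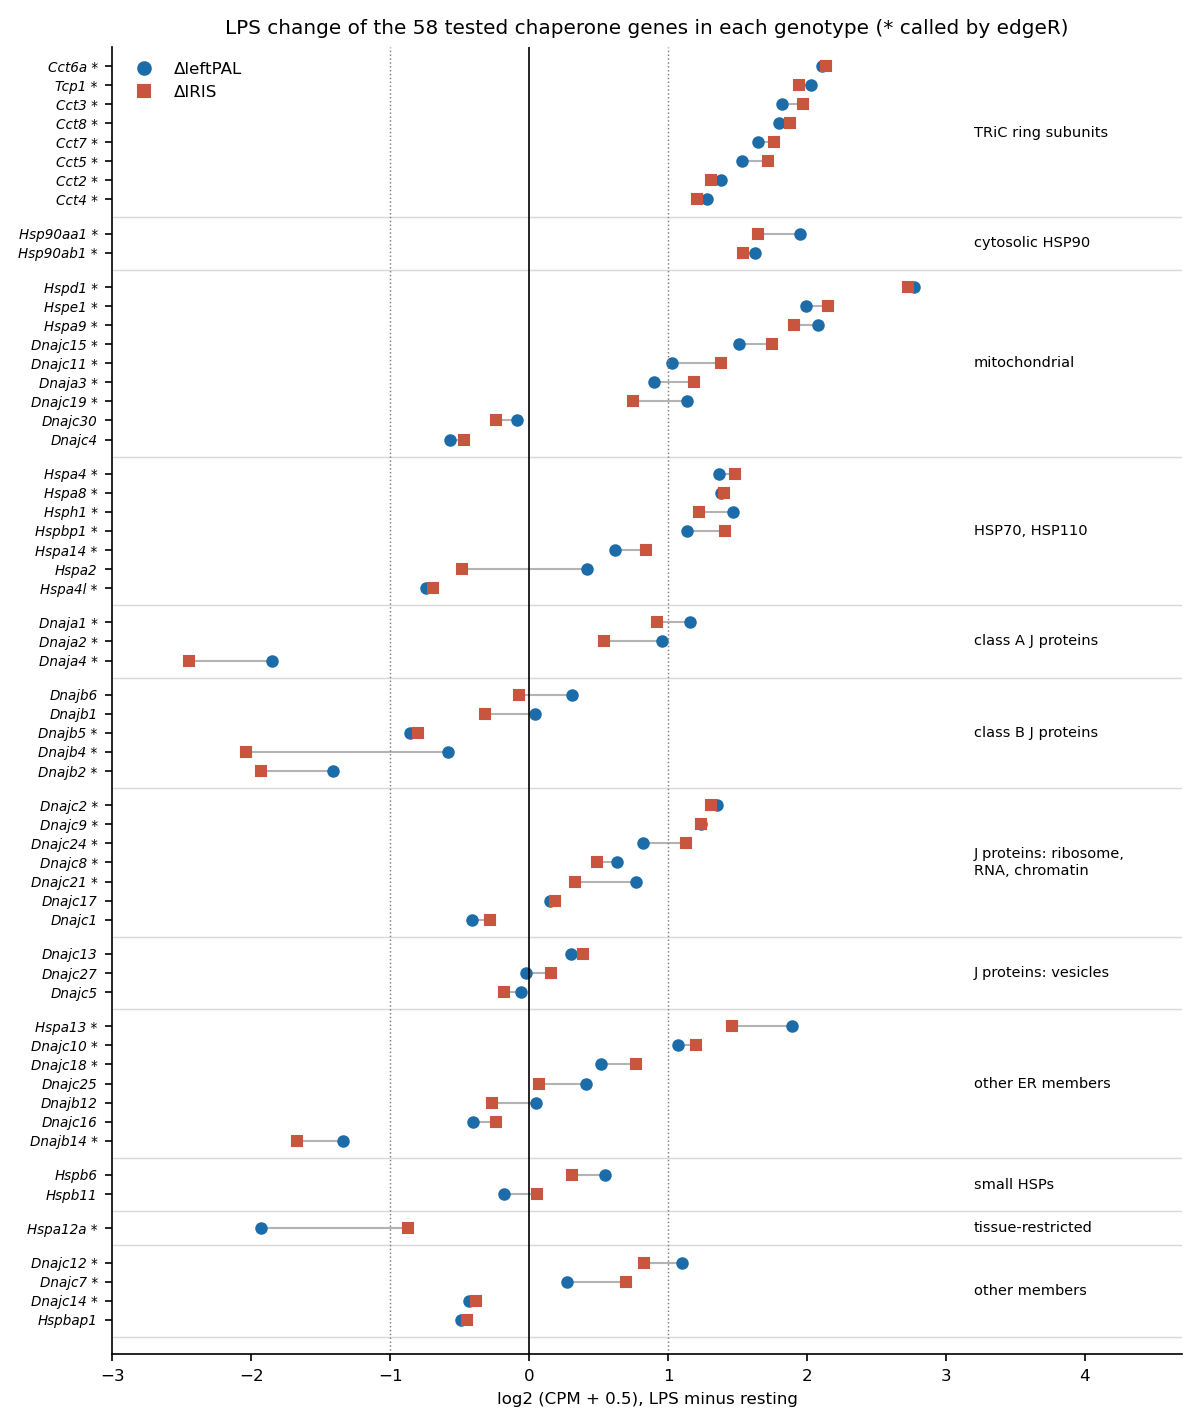
LPS change of each of the 58 tested members, as the difference of log2 (CPM + 0.5) between the LPS and the resting library, in ΔleftPAL (circles) and ΔIRIS cells (squares), grouped by role, with a star on genes called by edgeR and dotted lines at 2-fold. All 8 TRiC subunits lie beyond the upper 2-fold line in both genotypes, and Hspd1 lies farthest to the right at 2.77 and 2.73.

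All 8 TRiC subunits rose, by 1.25 (Cct4) to 2.13 (Cct6a) on the log2 scale with a median of 1.78, and each was at least 2-fold higher in both genotypes. Their summed level was 1082 and 3506 CPM in ΔleftPAL and 1164 and 3857 CPM in ΔIRIS cells. Cct6a had 79.8 and 347 CPM in ΔleftPAL and 93.0 and 410 CPM in ΔIRIS cells (log2 change 2.13 ± 0.12 (SE), edgeR adjusted p = 0.000210). Tcp1, the first subunit of the ring to be described, had 160 and 656 CPM in ΔleftPAL and 178 and 684 CPM in ΔIRIS cells (1.99 ± 0.12, adjusted p = 0.000241). For both genes the LPS libraries lay above the resting libraries of either genotype. Cct3 had 118 and 418 CPM in ΔleftPAL and 114 and 448 CPM in ΔIRIS cells. Cct8 had 118 and 411 CPM in ΔleftPAL and 131 and 486 CPM in ΔIRIS cells. Cct7 had 115 and 365 CPM in ΔleftPAL and 108 and 369 CPM in ΔIRIS cells. Levels of these 3 subunits were closest to each other in resting ΔleftPAL cells, and their log2 changes were 1.90, 1.84 and 1.71. Cct5 had 186 and 539 CPM in ΔleftPAL and 178 and 588 CPM in ΔIRIS cells (log2 change 1.63). Cct2 had 172 and 446 CPM in ΔleftPAL and 213 and 527 CPM in ΔIRIS cells (log2 change 1.34). Cct4 had 133 and 325 CPM in ΔleftPAL and 149 and 346 CPM in ΔIRIS cells (log2 change 1.25). Resting and LPS libraries did not overlap for any subunit (background 46.4%), and the adjusted p of these 6 subunits was between 0.000274 and 0.000671.

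The ring holds 1 copy of each subunit per layer, so levels were compared per length as kallisto TPM over transcripts that GENCODE M21 types as coding. Cct6a has a single transcript in the estimates, typed there as a processed transcript, and its TPM was used in full. The highest subunit was 2.35 and 2.52 times the lowest in resting ΔleftPAL and ΔIRIS cells, and 2.16 and 2.15 times after LPS. The coefficient of variation over the 8 subunits was 34.9% and 38.2% at rest and at most 30.3% after LPS, a description of 4 libraries with no test. Cct5 was among the highest in every library, with 130 TPM at rest and 333 TPM after LPS in ΔleftPAL cells. Cct4 and Cct8 were among the lowest, with 59.7 and 55.3 TPM in resting ΔleftPAL cells, and Cct7 was the lowest in resting ΔIRIS cells (58.1 TPM). This order depends on the transcript types. A Cct8 transcript typed as nonsense-mediated decay, with 21.4 to 72.9 TPM over the 4 libraries, was left out.

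**Figure D2:**
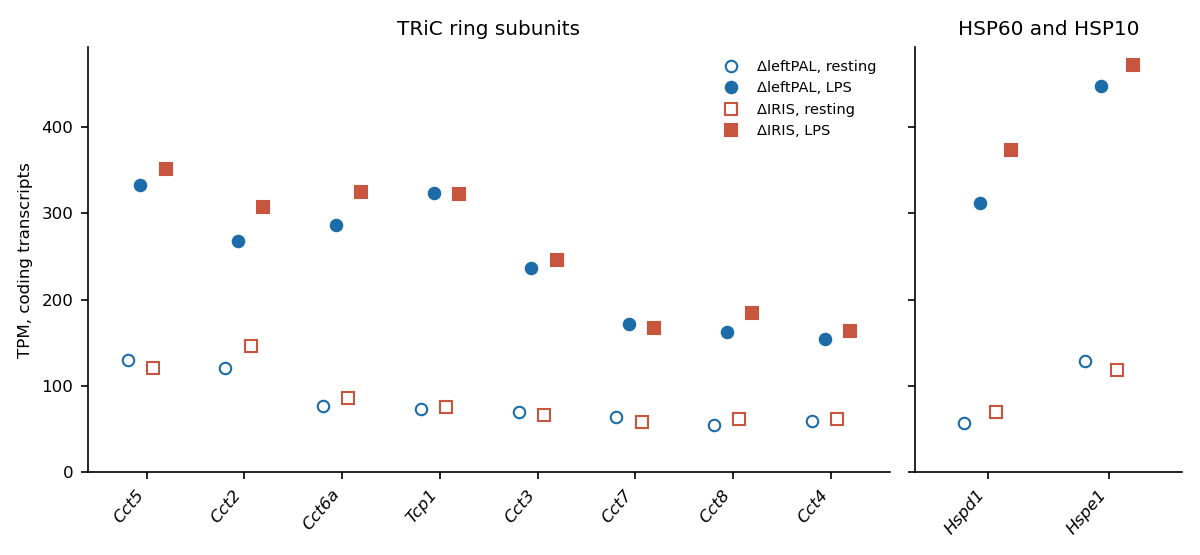
Level per length, as kallisto TPM of transcripts typed as coding (for Cct6a its single transcript, typed as processed; linear axis from 0), of the 8 TRiC subunits (left) and of HSP60 and HSP10 (right) in each of the 4 libraries, open symbols for resting and filled symbols for LPS. Every filled symbol lies above the open symbols of its gene, and the TRiC subunits span 2.15-fold to 2.52-fold within a library.

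Of 9 tested mitochondrial members 7 rose (77.8%) and none fell, against 36.4% and 27.9% of all genes tested. Hspd1, which encodes HSP60, had 92.9 and 635 CPM in ΔleftPAL and 118 and 785 CPM in ΔIRIS cells. Its change of 2.76 ± 0.12 (SE) on the log2 scale, or 6.75-fold (adjusted p = 0.000158), was the largest of the 58 tested members. Hspe1, which encodes HSP10, the lid of the HSP60 ring, had 60.8 and 243 CPM in ΔleftPAL and 58.4 and 262 CPM in ΔIRIS cells (2.08 ± 0.13, 4.23-fold, adjusted p = 0.000254). Both genes were far above rest after LPS in either genotype. Per length, Hspe1 stood at 2.28 and 1.70 times the TPM of Hspd1 in resting ΔleftPAL and ΔIRIS cells and at 1.43 and 1.26 times after LPS. Hspa9, the mitochondrial HSP70, had 131 and 552 CPM in ΔleftPAL and 165 and 619 CPM in ΔIRIS cells (1.99 ± 0.13, adjusted p = 0.000256). Dnajc15, a J protein of the import motor, had 8.88 and 26.3 CPM in ΔleftPAL and 7.81 and 27.4 CPM in ΔIRIS cells (log2 change 1.69, adjusted p = 0.000675). Dnajc19, its relative, had 11.9 and 26.8 CPM in ΔleftPAL and 14.2 and 24.3 CPM in ΔIRIS cells (log2 change 0.97, adjusted p = 0.00483). The log2 ratios of Dnajc15 and Dnajc19, at most 1.51 in ΔleftPAL and 1.75 in ΔIRIS cells, were below those of Hspd1 and Hspe1. Dnaja3, the class A partner of the mitochondrial HSP70, had 28.8 and 54.1 CPM in ΔleftPAL and 23.5 and 54.1 CPM in ΔIRIS cells (log2 change 1.06, adjusted p = 0.00182). Dnajc11, a protein linked to the cristae of the inner membrane, had 36.1 and 74.2 CPM in ΔleftPAL and 30.7 and 80.7 CPM in ΔIRIS cells (log2 change 1.22, adjusted p = 0.00124). The remaining tested genes did not pass the test. Dnajc4 had 7.78 and 5.09 CPM in ΔleftPAL and 5.78 and 4.03 CPM in ΔIRIS cells (adjusted p = 0.0854), and Dnajc30 had 6.58 to 7.84 CPM over the 4 libraries (adjusted p = 0.525).

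Hspd1 and Hspe1 lie head to head on chromosome 1 of the mm10 build, Hspd1 at chr1:55077835-55088243 on the minus strand and Hspe1 at chr1:55088132-55091307 on the plus strand, and their annotated ranges overlap by 112 bases. The counting used strand, and the gene counts divided by the kallisto estimated counts were between 0.984 and 1.01 for both genes in every library. RefSeq promoter windows of 300 bases (GRCm38.p6, 250 bases before a start site and 50 from it on) were found for 62 members, among them several windows for some genes. They were searched on both strands for the pieces of a heat shock element, GAANNTTC and TTCNNGAA, for a run of 3 alternating units of this kind, and for the E-box CACGTG, and a run of 3 units also holds both of the 8-letter pieces. The run of 3 units was present in windows of 4 of the 62 members (6.45%), namely Hspd1, Hspe1, Dnajb6 and Hsph1, and in windows of 0.662% of 27025 genes. GAANNTTC was present in 22.6% of the members and 9.04% of all genes, TTCNNGAA in 12.9% and 9.60%, and CACGTG in 9.68% and 8.09%. A match of letters is a description of these windows and not a site of binding. The 15 members without a window, among them Hspa8, Hspa9, Hsp90aa1 and Hsp90ab1, were not searched. Of the 6 windows with a 3-unit run, 1 each of Hspe1, Dnajb6 and Hsph1 is shown. That of Hspe1 overlaps the window of Hspd1 (chr1:55087883-55088182, minus strand), the member with the largest rise after LPS, and holds the same run read on the other strand, which starts at -144 from the start site of Hspd1. Capitals mark the run, which starts at -89 from the start site in Hspe1 (chr1:55087898-55088197, plus strand, with 2 overlapping runs), at -46 in Dnajb6 (chr5:29735648-29735947, plus strand) and at 15 bases after the start site in Hsph1 (chr5:149636266-149636565, minus strand).
Hspe1: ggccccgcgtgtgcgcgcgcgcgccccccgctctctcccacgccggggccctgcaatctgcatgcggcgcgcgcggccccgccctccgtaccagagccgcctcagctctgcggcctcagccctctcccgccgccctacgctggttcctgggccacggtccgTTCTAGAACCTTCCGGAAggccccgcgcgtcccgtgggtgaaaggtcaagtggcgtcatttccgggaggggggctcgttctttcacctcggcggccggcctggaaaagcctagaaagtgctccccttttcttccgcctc
Dnajb6: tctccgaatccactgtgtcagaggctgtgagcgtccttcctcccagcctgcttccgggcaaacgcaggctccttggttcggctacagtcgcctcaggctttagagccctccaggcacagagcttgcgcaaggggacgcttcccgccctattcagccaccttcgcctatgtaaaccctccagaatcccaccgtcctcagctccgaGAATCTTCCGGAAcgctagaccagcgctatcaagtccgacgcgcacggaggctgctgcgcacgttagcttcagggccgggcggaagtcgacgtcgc
Hsph1: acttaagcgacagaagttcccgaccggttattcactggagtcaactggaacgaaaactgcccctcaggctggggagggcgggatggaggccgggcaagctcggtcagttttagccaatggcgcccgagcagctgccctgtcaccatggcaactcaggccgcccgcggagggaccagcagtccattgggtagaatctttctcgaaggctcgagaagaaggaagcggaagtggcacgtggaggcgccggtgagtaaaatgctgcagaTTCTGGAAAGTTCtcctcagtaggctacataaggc
Of the 300 bases of the Hspe1 window 285 are also in the window of an Hspd1 start site 216 bases away on the other strand. The window of the other Hspd1 start site, at chr1:55088194-55088493, holds neither piece and 0 runs. Cct6a, with the second largest rise, has no run in its window. Hspd1 rose 6.75-fold, Hspe1 4.23-fold and Hsph1 2.56-fold. Dnajb6, also with a run, did not pass the test (log2 change 0.12, adjusted p = 0.515).

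Both cytosolic HSP90 genes rose. Hsp90ab1, the constitutive form, had 846 and 2616 CPM in ΔleftPAL and 961 and 2801 CPM in ΔIRIS cells (log2 change 1.59 ± 0.13 (SE), adjusted p = 0.000405). Hsp90aa1, the form that heat and other stress induce, had 299 and 1157 CPM in ΔleftPAL and 467 and 1465 CPM in ΔIRIS cells (1.80 ± 0.14, adjusted p = 0.000385). Resting and LPS libraries did not overlap for either gene (background 46.4%), and Hsp90ab1 remained the more abundant form. Per length, Hsp90aa1 made up 22.1% and 27.9% of the TPM of both genes in ΔleftPAL and 29.3% and 31.6% in ΔIRIS cells.

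Of 7 tested cytosolic HSP70 and HSP110 members 5 rose (71.4%) and 1 fell (14.3%), against 36.4% and 27.9% of all genes tested. Hspa8, the constitutive HSP70, had 735 and 1915 CPM in ΔleftPAL and 840 and 2213 CPM in ΔIRIS cells (log2 change 1.39 ± 0.12 (SE), adjusted p = 0.000514). Its gene counts were 0.829 to 0.906 times the kallisto estimated counts. With 474 and 551 TPM at rest and 1045 and 1188 TPM after LPS, it was the member with the highest level per length at rest, and after LPS it came second to Hsp90ab1 (1207 and 1253 TPM). Hspa4, an HSP110 exchange factor, had 157 and 405 CPM in ΔleftPAL and 171 and 476 CPM in ΔIRIS cells (log2 change 1.43, adjusted p = 0.000477). Hsph1, its stress-inducible relative, had 24.7 and 69.3 CPM in ΔleftPAL and 32.6 and 76.5 CPM in ΔIRIS cells (log2 change 1.36, adjusted p = 0.000716). The change was of a similar size in these 3 genes, although their levels differed. Hspbp1, another exchange factor, had 12.5 and 28.2 CPM in ΔleftPAL and 11.4 and 30.9 CPM in ΔIRIS cells (log2 change 1.31, adjusted p = 0.00125). Hspa14, an HSP70 of the ribosome, had 70.0 and 108 CPM in ΔleftPAL and 64.4 and 116 CPM in ΔIRIS cells (log2 change 0.74, adjusted p = 0.00535). Hspa4l, the third HSP110 gene, went the other way, with 17.8 and 10.5 CPM in ΔleftPAL and 21.9 and 13.4 CPM in ΔIRIS cells (log2 change -0.74, adjusted p = 0.00949). Hspa2, known for its role in the testis, did not pass the test (adjusted p = 0.913). It had 8.72 and 11.8 CPM in ΔleftPAL and 14.6 and 10.3 CPM in ΔIRIS cells, so that the resting library was the lower one in one genotype and the higher one in the other.

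**Figure D3:**
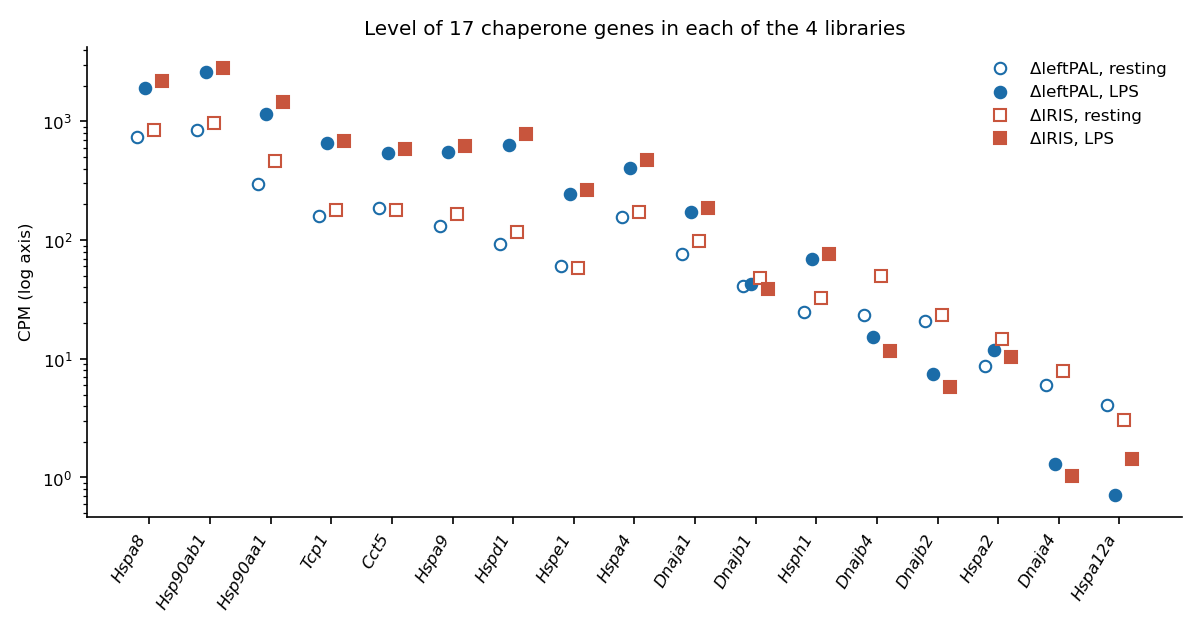
Level in CPM (log axis) of 17 members in each of the 4 libraries, open symbols for resting and filled symbols for LPS, circles for ΔleftPAL and squares for ΔIRIS. The genes on the left, from Hspa8 to Dnaja1, lie higher in both LPS libraries, and Dnajb4, Dnajb2, Dnaja4 and Hspa12a lie lower.

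Of the cytosolic class A proteins, which are the general partners of HSP70, Dnaja1 had 76.2 and 171 CPM in ΔleftPAL and 99.0 and 188 CPM in ΔIRIS cells (log2 change 1.04, adjusted p = 0.00167). Dnaja2 had 83.9 and 163 CPM in ΔleftPAL and 126 and 184 CPM in ΔIRIS cells (log2 change 0.75, adjusted p = 0.00818). Dnaja4 had 5.98 and 1.30 CPM in ΔleftPAL and 7.84 and 1.02 CPM in ΔIRIS cells. Its log2 change of -2.56 ± 0.32 (SE), or 5.91-fold lower (adjusted p = 0.00156), was the largest fall of the 58 tested members.

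Among the class B proteins 0 of 5 tested members rose, against 36.4% of all genes tested, and 3 fell (60%, against 27.9%). Dnajb2, a ubiquitin-binding J protein known from neurons, had 20.8 and 7.50 CPM in ΔleftPAL and 23.4 and 5.77 CPM in ΔIRIS cells (log2 change -1.74 ± 0.21 (SE), adjusted p = 0.00126). Dnajb5, a close relative of Dnajb1, had 11.2 and 5.94 CPM in ΔleftPAL and 11.2 and 6.21 CPM in ΔIRIS cells (log2 change -0.88, adjusted p = 0.0130). Dnajb4, another such relative, had 23.2 and 15.4 CPM in ΔleftPAL and 49.5 and 11.6 CPM in ΔIRIS cells (-1.35 ± 0.36, adjusted p = 0.0219). Without the resting library of ΔIRIS and the genotype term the change of Dnajb4 was -0.78, and without the LPS library of ΔIRIS the call was lost (-1.24). For these 3 genes both LPS libraries lay below both resting libraries (background 37.1%). Dnajb1, the best known heat-inducible J protein, had 41.4 and 42.6 CPM in ΔleftPAL and 48.3 and 38.7 CPM in ΔIRIS cells (adjusted p = 0.432). Dnajb6, which keeps aggregating proteins in solution, had 74.3 and 92.0 CPM in ΔleftPAL and 99.0 and 94.3 CPM in ΔIRIS cells. Resting and LPS libraries overlapped for both.

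Of 7 J proteins of the ribosome, of RNA and of chromatin 5 rose (71.4%) and none fell, against 36.4% and 27.9% of all genes tested. Dnajc2, which sits on the ribosome at the exit of the nascent chain, had 44.1 and 113 CPM in ΔleftPAL and 52.5 and 131 CPM in ΔIRIS cells (log2 change 1.34, adjusted p = 0.000601). Dnajc9, which binds histones H3 and H4, had 62.2 and 148 CPM in ΔleftPAL and 63.2 and 150 CPM in ΔIRIS cells (log2 change 1.25, adjusted p = 0.000743). Dnajc24 (1.05), Dnajc8 (0.56) and Dnajc21 (0.56) rose by smaller log2 values, and Dnajc17 (0.18) and Dnajc1 (-0.36) did not pass the test. None of the 3 tested J proteins of vesicles and endosomes, Dnajc5, Dnajc13 and Dnajc27, passed the test, and their log2 changes lay between -0.12 and 0.35. Dnajc13 (adjusted p = 0.0548) was called as higher under 3 of 9 alternative fits with all 4 libraries.

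Of the 7 listed ER members 3 rose (42.9%) and 1 fell (14.3%), against 36.4% and 27.9% of all genes tested. Hspa13, an HSP70 of the microsomes, had 17.5 and 66.4 CPM in ΔleftPAL and 20.8 and 58.1 CPM in ΔIRIS cells (log2 change 1.70, adjusted p = 0.000616). Dnajc10, a J protein with thioredoxin domains that reduces disulfides, had 50.3 and 106 CPM in ΔleftPAL and 43.8 and 101 CPM in ΔIRIS cells (log2 change 1.14). Dnajc18 rose as well (log2 change 0.67), and Dnajc25, Dnajb12 and Dnajc16 did not pass the test. Dnajb14, a J protein of the ER membrane, had 9.91 and 3.60 CPM in ΔleftPAL and 10.4 and 2.93 CPM in ΔIRIS cells (log2 change -1.64, adjusted p = 0.00275). This fall was found in the gene counts alone. The gene counts of Dnajb14 were 0.655 and 0.676 times the kallisto estimated counts at rest and 0.235 and 0.169 times after LPS, and with the estimated counts the log2 ratio of LPS over resting was 0.14 in ΔleftPAL and 0.33 in ΔIRIS cells.

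Genes with an Hspb name, listed together by name alone, were scarce, with 2 of 8 genes tested. Hspb11 had 4.09 to 4.83 CPM and Hspb6 1.84 to 2.93 CPM over the 4 libraries, and neither passed the test. Hspa12a, an atypical HSP70 of brain and other tissues, had 4.09 and 0.705 CPM in ΔleftPAL and 3.03 and 1.43 CPM in ΔIRIS cells (log2 change -1.75 ± 0.44 (SE), adjusted p = 0.0168). Of the remaining members, Dnajc7 (0.49) and Dnajc12 (1.19) rose, Dnajc14 fell (-0.41) and Hspbap1 did not pass the test. Dnajc7, Dnajc12, Dnajc14 and Dnajc21 lost their call under 1 or 2 of 9 alternative settings with all 4 libraries. The 19 members below the limit for a test were Dnajc28, with 35 to 61 counts per library, Dnajb13, with 17 and 2 counts in ΔleftPAL and 18 and 3 counts in ΔIRIS cells, and Dnajb3, Dnajb7, Dnajb8, Dnajc5b, Dnajc5g, Dnajc6, Dnajc22, Hspa1l, Hspa12b, Hspb1, Hspb2, Hspb3, Hspb7, Hspb8, Hspb9, Cct6b and Cct8l1, with at most 15 counts in any library. Dnajb8, Dnajc5b, Dnajc5g, Hspb3 and Cct8l1 were at 0 in each library, which allows up to 0.102 to 0.123 CPM.

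Genes related to these chaperones were counted from a list of 41 that are not members. The list holds co-chaperones and regulators, and also Trap1, Clpb, Clpp, Clpx and Lonp1, which all rose and are not partners of the members. Of the 41 genes 30 rose (73.2%) and 1 fell (2.44%, Unc45a), against 36.4% and 27.9% of all genes tested. The median was 0.80 on the log2 scale against 0.12. Stip1, which hands clients from HSP70 to HSP90, changed by 2.14, and the HSP90 partners Fkbp4, Ptges3 and Ahsa1 by 1.82, 1.63 and 1.54. Bag2, an exchange factor, had 1.11 and 7.35 CPM in ΔleftPAL and 0.757 and 10.1 CPM in ΔIRIS cells and had the largest change of the list, 3.22. The prefoldin subunits, which deliver actin and tubulin to TRiC, rose for Pfdn1, Pfdn2, Pfdn4, Pfdn6 and Vbp1 (0.64 to 1.81) and did not pass the test for Pfdn5 (-0.28, adjusted p = 0.0938). Hsf1, the transcription factor of the heat shock response, had 22.6 to 27.6 CPM over the 4 libraries and did not pass the test (adjusted p = 0.781). Hsf2, the other heat shock factor of the list, rose, with 7.21 and 12.9 CPM in ΔleftPAL and 10.1 and 15.3 CPM in ΔIRIS cells (log2 change 0.72, edgeR adjusted p = 0.0192). A list of 10 acute stress genes, among them Hspa1a and Hspa1b, which the names left out, went the other way. Of these 9 fell and none rose, with a median of -3.15.

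The genotypes were compared at rest and after LPS. By edgeR with culture as a term, 0 of the 58 tested members were called, against 0.00886% of all genes tested, and the smallest adjusted p of a member was 0.707. An unadjusted p under 0.05 was found for 2 of the 58 members, Hsp90aa1 (0.0132) and Hspd1 (0.0372), a share below the 7.02% of all genes tested, and the DESeq2 Wald test called 0 members. With 2 libraries per genotype, a p that misses the threshold does not show that the genotypes were alike. At rest 1 member was at least 2-fold apart, with a background of 2.85%, and after LPS 0 members were, with a background of 1.98%. The resting count was 0 by kallisto TPM over all transcripts or with a prior of 5 CPM.

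The member at least 2-fold apart at rest was Dnajb4, with 49.5 CPM in ΔIRIS and 23.2 CPM in ΔleftPAL cells. This log2 ratio (ΔIRIS over ΔleftPAL) came to 1.08, with an exact 95% Clopper-Pearson interval of 0.95 to 1.24 that covers counting error only, and 0.95 by kallisto TPM over all transcripts. Over coding transcripts alone Dnajb4 had 27.3 TPM in resting ΔIRIS and 12.4 TPM in resting ΔleftPAL cells. After LPS the log2 ratio of Dnajb4 was -0.39 (interval -0.61 to -0.19), so that the library order was the opposite one. Hspa2 had a ratio of 0.71 at rest (interval 0.50 to 0.99), Hsp90aa1 of 0.64 (interval 0.60 to 0.69) and Dnaja2 of 0.58 (interval 0.51 to 0.66). These members were all higher in the resting ΔIRIS library, whereas after LPS the ratios were -0.19, 0.34 and 0.17. Over the 58 members the median ratio was 0.12 at rest, with 37 members higher in ΔIRIS, and 0.09 after LPS, with 39 higher. For all genes tested these medians were 0.00 and 0.03, with 5648 and 6191 of 11286 genes higher in ΔIRIS. The acute stress genes stood apart between the same resting libraries. Of the 10, 9 were higher in resting ΔIRIS cells, with a median log2 ratio of 0.68, among them Hspa1a at 9.29 and 2.70 CPM, Hspa1b at 7.74 and 1.60 CPM and Atf3 at 227 and 76.9 CPM in ΔIRIS and ΔleftPAL cells. Their part in the resting difference of the chaperones was not tested.

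**Figure D4:**
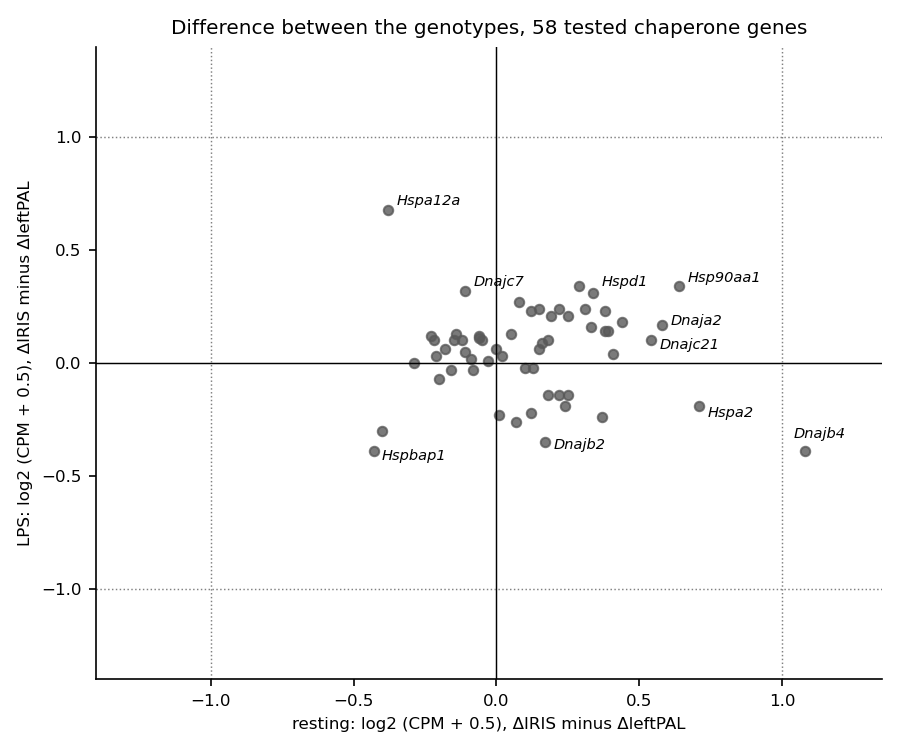
Difference between the genotypes for each of the 58 tested members, as the log2 (CPM + 0.5) of ΔIRIS minus that of ΔleftPAL, at rest (horizontal axis) and after LPS (vertical axis), with dotted lines at 2-fold. Dnajb4 is the member beyond a 2-fold line, at 1.08 at rest and -0.39 after LPS, and most members lie within 0.5 of 0 on both axes.

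The LPS change itself differed most between the genotypes in 4 members, for which the design leaves no test. Dnajb4 changed by -0.58 (interval -0.78 to -0.41) in ΔleftPAL and by -2.04 (interval -2.26 to -1.92) in ΔIRIS cells. Hspa12a changed by -1.93 in ΔleftPAL and -0.87 in ΔIRIS cells, from levels of a few CPM. Hspa2 changed by 0.42 (interval 0.19 to 0.70) in ΔleftPAL and by -0.48 (interval -0.72 to -0.29) in ΔIRIS cells. Dnaja4 changed by -1.85 and -2.45. In Dnajb4, Hspa2 and Dnaja4 the resting ΔIRIS library was the highest of the 4, and the LPS libraries of the genotypes lay closer together than the resting ones.

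Transcript estimates differed between rest and LPS as well, an analysis that was chosen after the values had been seen. For 34 members with both coding and non-coding transcripts (retained introns, nonsense-mediated decay and processed transcripts, by GENCODE M21) and at least 100 estimated counts in each library, the non-coding transcripts held a median of 16.2% and 5.78% of the kallisto estimated counts in ΔleftPAL and 17.1% and 5.80% in ΔIRIS cells, at rest and after LPS. The share was lower after LPS in both genotypes for 28 of the 34 members (82.4%) and for 71.2% of 5445 genes. Tcp1 had 34.4% and 12.6% in ΔleftPAL and 37.8% and 13.3% in ΔIRIS cells. Dnaja1 had 49.9% and 17.2% in ΔleftPAL and 40.0% and 13.4% in ΔIRIS cells. Cct4 had 25.1% and 8.18% in ΔleftPAL and 31.4% and 5.88% in ΔIRIS cells. These genes, all of which rose after LPS, kept a larger part of their reads on non-coding forms at rest. Dnajc7 showed no such difference, with 41.8% to 50.8% over the 4 libraries, and Dnajc5 had 31.7% and 36.1% in ΔleftPAL and 26.5% and 32.7% in ΔIRIS cells. Of 21 members that rose and had such transcripts, 20 had a lower share after LPS in both genotypes (95.2%), against 80.1% of 2004 genes that rose. Total RNA holds unspliced RNA too, and whether these reads came from unspliced RNA was not tested.

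**Figure D5:**
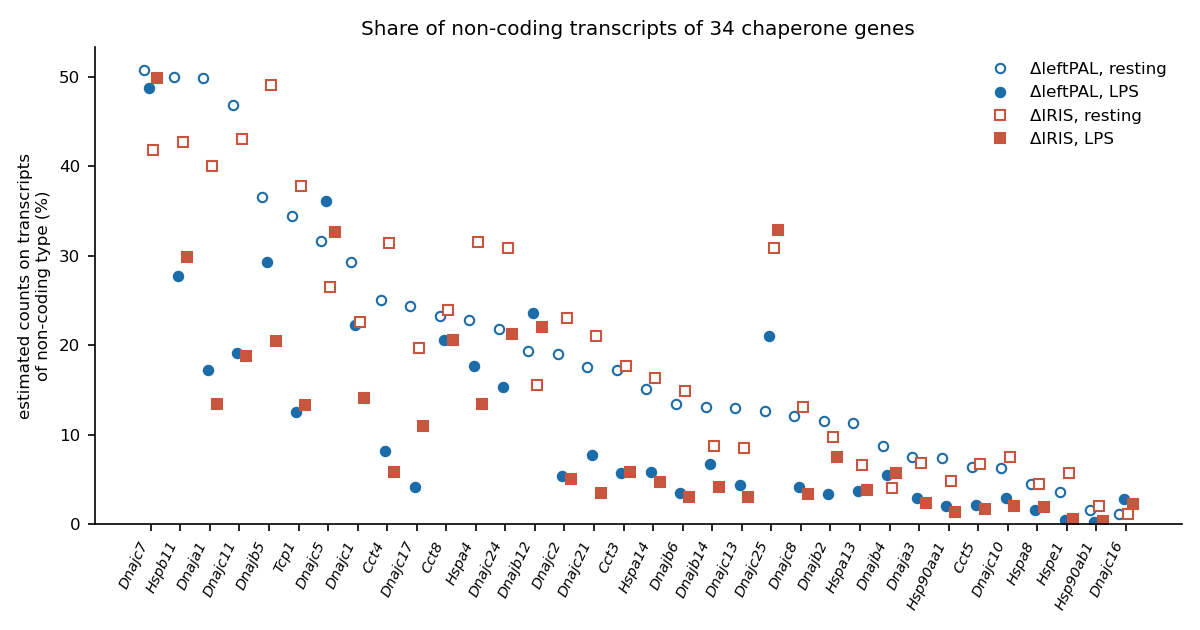
Share of the kallisto estimated counts of a gene on its non-coding transcripts (%, linear axis from 0) for 34 members in each of the 4 libraries, open symbols for resting and filled symbols for LPS, ordered by the resting ΔleftPAL value. Filled symbols lie below the open symbols for most genes, with medians of 5.78% and 5.80% after LPS against 16.2% and 17.1% at rest.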

How the data were processed

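The authors mapped paired reads of stranded, ribosomal RNA-depleted libraries with STAR 2.4.0a to mm10 and deposited gene counts by gene name (featureCounts of Subread 1.4.6-p1, Ensembl annotation, primary alignments, multi-mapping reads kept) without normalization. They also deposited estimated counts and TPM per transcript from kallisto 0.42.3 (versions from the submitters' processing notes), whose index is not given in the sources used here. Reads shared with pseudogenes under other names could therefore count for a member. A row without a gene name (0.00876% to 0.0264% of counts) was left out. CPM used TMM factors (0.970 to 1.03), log2 ratios of single libraries used CPM plus 0.5, which understates changes of low genes, and edgeR 4.0.16 in R 4.3.3 gave the tests with Benjamini-Hochberg adjustment over 11286 genes. Estimated counts were summed per gene and rounded. Python 3.11.15, numpy 2.4.6, pandas 2.3.3, scipy 1.17.1 and matplotlib 3.10.9 did the rest. The fit was tested on simulated data, where the share of unchanged genes among its calls was above the 0.05 set for the adjusted p. Floors and intervals cover counting error only. Members of the first 4 role lists, the 6 largest rises and falls, members 2-fold apart between genotypes, the 4 largest differences in LPS change and the highest TPM were named by rule, and the other roles were then given in full. The members and lists were chosen with earlier results of these data known. The alternatives were 3 other scalings (total counts, size factors of DESeq2 1.42.0, and TMM with immunoglobulin genes left out), 3 other filters (at least 10 or 200 counts on average, or any), kallisto values, a prior of 5 CPM, the DESeq2 Wald test and fits without the other factor. Leaving out each library was added after seeing the data. The wt libraries were not analysed here.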

Additional observations from a re-analysis of the deposited data

Results flagged for a closer look

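The LPS change had opposite signs in the genotypes for 6 tested members, and this difference was not tested, since each group has 1 library. The share of all genes tested with opposite signs was not counted, so this number cannot be read as particular to the members. The difference (ΔIRIS minus ΔleftPAL) was largest for Hspa2, at -0.90, with log2 ratios of 0.42 in ΔleftPAL and -0.48 in ΔIRIS cells. For Hspa2 both counting intervals left out 0. For the other 5 members at least one interval included 0. Dnajb6 differed by -0.37 (0.31 and -0.07), Dnajb1 by -0.36 (0.04 and -0.32) and Dnajb12 by -0.32 (0.05 and -0.27). Hspb11 differed by 0.25 (-0.18 and 0.06) and Dnajc27 by 0.19 (-0.02 and 0.16).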

How the results depend on the processing

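Between 33 and 35 members rose under each alternative fit with all 4 libraries, and the 34 of the main fit included 8 of 8 TRiC subunits. The members that fell numbered 7 to 10 under the other such fits and 5 with a minimum mean of 200 counts, under which fewer members were tested. Of the 42 called members, 37 kept their direction and call under all of these fits that tested them. Dnajb14 went from a fall to a log2 change of 0.24 with kallisto estimated counts (0.14 in ΔleftPAL and 0.33 in ΔIRIS cells). Calls were lost by Dnajc12 with the DESeq2 Wald test (log2 change 1.20, main fit 1.19), Dnajc7 with total counts (0.42, main fit 0.49), Dnajc21 without the genotype term (no replicate block; 0.53, main fit 0.56), and Dnajc14 with the Wald test (-0.41, as in the main fit) and with kallisto estimated counts (-0.23), and the cause was not tested. Calls were gained by Dnajc13 with kallisto estimated counts (0.53), with TMM without immunoglobulin genes (0.36) and without the genotype term (0.35), and by Dnajc1 with kallisto estimated counts (-0.41). At least 2-fold lower in both genotypes were 3 members, and 1 with a minimum mean of 200 counts or a prior of 5 CPM. At least 2-fold apart at rest was 1 member, and 0 by kallisto TPM over all transcripts or with a prior of 5 CPM. Of the alternatives, kallisto TPM moved the median LPS ratio of all genes most, from 0.12 to -0.20 in ΔleftPAL and from 0.13 to -0.18 in ΔIRIS cells. The members' medians moved from 0.79 to 0.35 and from 0.76 to 0.46, and 16 instead of 23 members were at least 2-fold higher in both. Genotype calls among the members were 0 in every one of these fits, that without the culture term included. An alternative chosen after seeing the data left out each library in turn and dropped the other factor, so that the lone library is assumed to vary like the other group. Members that rose then numbered 28 to 33 and members that fell 4 to 8, with 4 without the LPS library of ΔleftPAL, and genotype calls stayed at 0. Of the 42 calls 31 were kept without each library. Without the LPS library of ΔleftPAL calls were lost by Hspa4l (log2 change -0.57), Dnajb5 (-0.85), Hspa12a (-1.31), Dnaja2 (0.81), Dnajc8 (0.66), Dnajc12 (1.27), Dnajc14 (-0.42) and Dnajc21 (0.58), the last 5 with log2 changes at least as large as in the main fit. Without its resting library they were lost by Dnajc8 (0.38), Dnajc12 (0.90), Dnajc14 (-0.37) and Dnajc21 (0.28). Without the LPS library of ΔIRIS they were lost by Dnajb4 (-1.24), Dnajc18 (0.61), Dnaja2 (0.64), Dnajc7 (0.32), Dnajc8 (0.44), Dnajc12 (1.06), Dnajc14 (-0.40) and Dnajc21 (0.48), and without its resting library by Hspa4l (-0.58) and Dnajc7 (0.44), while Dnajc1 gained one (-0.44). Calls that held but moved by over 1.5 times were those of Dnajb4 without the resting library of ΔIRIS (-0.78, main fit -1.35) and Dnaja2 without that of ΔleftPAL (0.46, main fit 0.75). Members of a few CPM, such as Hspa12a and Dnaja4, are limited by depth.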
